A study of Sus scrofa with 22 samples.

Results

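The leukocyte CD antigens are cell surface proteins that carry a number of the cluster-of-differentiation system, and 32 of them were followed here in the small intestine of piglets given chemotherapy. The members are the genes whose array accession maps to a pig gene symbol made of CD, a number and at most 1 letter. CD163, CD14, CD8A, CD3E, CD96 and CD79A were left out of the members by that rule. The array names 38 such symbols among the 3029 symbols that its probes reached, so 32 remained, with 60 probes. Each gene was represented by its brightest probe, and 30 of the 32 were tested, since their Cy5 signal stood well above background on at least 5 of 22 arrays. The lipid antigen presenter CD1E reached that level on 4 arrays and was not tested. The label does not hold for every member. CD5L is a secreted protein of macrophages that was named for its likeness to CD5, and several others (CD9, CD36, CD46, CD47, CD55, CD59, CD81 and CD82) are found on epithelial and other cells as well as on leukocytes.

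CD antigens serve to recognise leukocytes, and many of them act in the contact between cells. The CD3 chains carry the signal of the T cell receptor into the cell. CD80 and CD86 on antigen-presenting cells give T cells their second, costimulatory signal through CD28, and tetraspanins such as CD9, CD81 and CD82 organise other membrane proteins into patches. The lining of the small intestine is one of the largest stores of T cells in the body, both between the epithelial cells and in the tissue beneath them, and it renews itself from dividing cells that cytotoxic drugs damage.

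The tissue came from 2 separate experiments in specific-pathogen-free crossbred piglets (Large White × Danish Landrace), 3 days old, that had suckled their mother before they were delivered and were then kept in single cages and fitted with a stomach tube and a jugular catheter under anaesthesia. In the DOX experiment 6 piglets were given 1 dose of doxorubicin, a topoisomerase II inhibitor, and 6 were untreated. In the BUCY experiment 5 piglets were given busulfan with cyclophosphamide, which alkylate DNA, and 5 were untreated. The sources used here do not give doses, the time of sampling or the part of the small intestine. Each piglet's RNA, labelled with Cy5, shared an array with a Cy3-labelled pool of all samples, and every level below is the log2 ratio of the piglet to that pool. A log2 change is the difference of 2 group means of such ratios.

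From 59.6% to 72.5% of an array's probes were well above background, and precision is limited by how many arrays there are. BUCY treated piglet 3 had the lowest share. The 22 arrays lay on 7 slides scanned on 3 days, and both drugs' groups were spread over slides. Of the 14 enterocyte markers listed for the tissue check, 9 were tested, and these stood above background on all 22 arrays. BUCY treated piglets 2 and 3 stood apart: the mean log2 ratio of the 9 enterocyte markers was -1.53 and -2.27 in them and between -0.14 and 0.48 in the other BUCY treated piglets. For most members the BUCY change is given with and without those piglets. The changes of other genes named beside the members are given only with them. A gene was called when its Benjamini-Hochberg adjusted p from limma, a linear model fitted over all 24761 genes tested, was under 0.05.

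In the BUCY comparison, 10 of the 30 tested members were called lower and 3 higher, against 9.26% of all genes called lower and 8.72% called higher. The median log2 change of the members was -0.26, beside 0.0039 for all genes. In the DOX comparison 1 member was called lower and 1 higher, against 0.517% and 0.372% of all genes, and the median log2 change was -0.11. The difference between the BUCY and the DOX effect was called for 2 members, both lower, against 2.56% of all genes called lower and 2.87% called higher. Each drug was given in its own experiment, so drug and experiment cannot be told apart in this difference. Between the untreated piglets of the 2 experiments, 7 members were lower and 3 higher in the BUCY experiment, where 10.9% of all genes were lower and 12.2% higher. Genes named by a symbol, as the members are, were called at other rates than all genes. Of the 2653 tested genes with a symbol, 12.1% were lower and 15.5% higher after BUCY, 1.21% lower and 0.754% higher after DOX, 3.51% lower and 7.05% higher for the difference of effects, and 22.2% lower and 10.3% higher between untreated piglets. The members' share between untreated piglets, 23.3% lower and 10% higher, lay near that of the symbol genes. The members were chosen with earlier results of these data known, so these counts describe the list and do not test it.

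**Figure D1:**
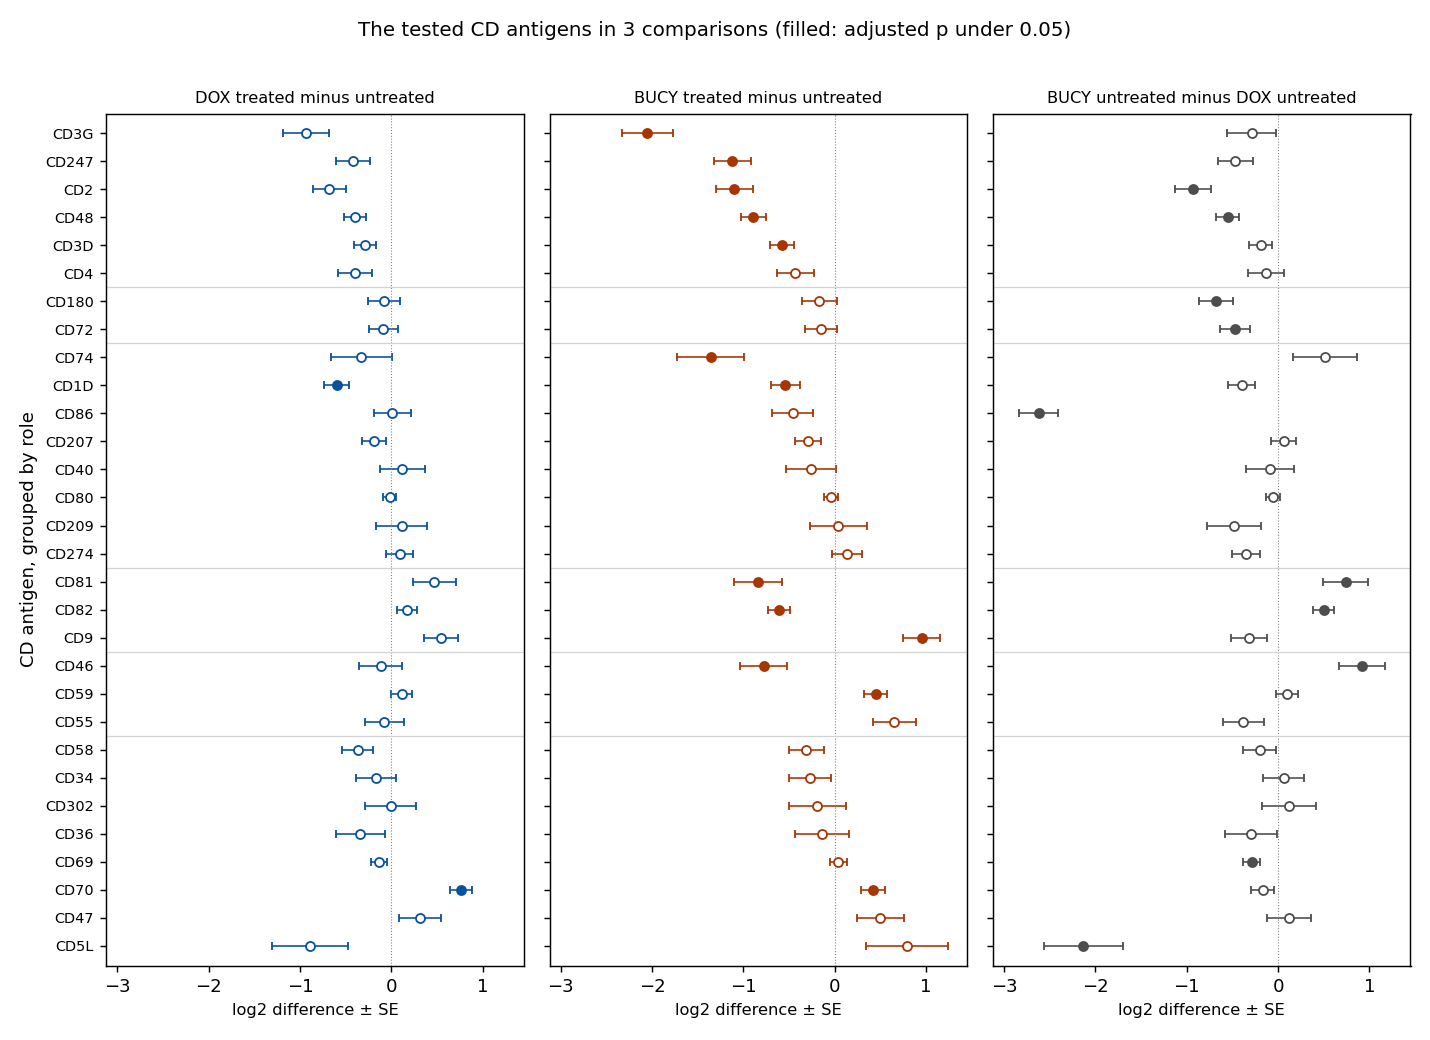
The log2 difference and its standard error (horizontal axis) is shown for each of the 30 tested CD antigens (rows, grouped by role) after DOX, after BUCY, and between the untreated piglets of both experiments, with filled points for an adjusted p under 0.05. The T and NK cell antigens in the top rows lie left of 0 in all 3 panels, and CD86 and CD5L lie farthest left in the panel of untreated piglets, at -2.62 and -2.13.

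The T and NK cell antigens were the role group with the most calls after BUCY: 5 of 6 were lower (CD3G, CD48, CD247, CD2 and CD3D) and the other, CD4, was not called. Their median log2 change was -1.0. Over all genes 9.26% were lower after BUCY and 0.517% after DOX, and over genes with a symbol 12.1% and 1.21%. After DOX 0 of 6 were called, although all 6 had a log2 change below 0, with a median of -0.41. In RNA of whole tissue, fewer T cells and less RNA per T cell cannot be told apart.

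CD3G is the gamma chain of the CD3 complex. The 5 untreated piglets of the BUCY experiment had log2 ratios of 0.70, 0.70, -0.60, -0.66 and -0.25. The 5 BUCY treated piglets had -1.95, -2.63, -1.95, -1.90 and -1.93. Every treated piglet lay below every untreated one, and treated piglet 2 lay well below the other 4, which were nearly level. CD3G was 4.14-fold lower after BUCY (log2 change -2.05, SE 0.275, limma adjusted p = 9.41e-05, n = 5 and 5). The array holds a second, dimmer CD3G probe that showed much less, with a log2 change of -0.30 (limma adjusted p = 0.102 in a fit of all probes). With the mean of both probes the change was -1.17 (adjusted p = 5.62e-05), so the size, unlike the direction, rests on the probe chosen. The scanner software's own log ratio, which subtracts background in another way, gave -3.62. In the DOX experiment CD3G ran from -0.10 to 0.71 in untreated piglets (median 0.22) and from -1.30 to 0.12 in treated piglets (median -0.62). The DOX groups overlapped, with treated piglets mostly below 0, and the log2 change of -0.94 (SE 0.251, limma adjusted p = 0.0836) was not called. It passed the threshold with slide as a fixed block (-1.08, adjusted p = 0.0245) or a random one (-0.99, adjusted p = 0.0483), with array weights (-1.04, adjusted p = 0.0132), with only the DOX arrays in the fit (adjusted p = 0.0278) and without DOX treated piglet 4 (-1.10, adjusted p = 0.0257).

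CD247 encodes the zeta chain, which carries most of the signalling motifs of the T cell receptor. Untreated piglets of the BUCY experiment had log2 ratios of 0.10, 0.13, -0.62, 0.17 and -0.49, and BUCY treated piglets -1.29, -1.73, -1.12, -1.22 and -0.94. The groups did not overlap, and untreated piglets 3 and 5 came closest to the treated ones. CD247 was 2.17-fold lower after BUCY (log2 change -1.12, SE 0.199, limma adjusted p = 8.99e-04). Its second probe gave -0.36 (adjusted p = 0.0641), and the mean of both probes -0.74 (adjusted p = 0.00421). Without DOX it ran from 0.09 to 0.72 (median 0.31) and with DOX from -0.52 to 0.44 (median -0.20). DOX treated piglets 4 and 5, at 0.38 and 0.44, were within the range of the untreated piglets, and the change of -0.42 (adjusted p = 0.334) was not called.

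CD2 is an adhesion receptor of T and NK cells that binds CD58 and CD48. Its log2 ratios were -0.06, -0.10, -0.63, -0.16 and -0.33 in untreated piglets of the BUCY experiment and -1.34, -1.71, -1.20, -1.24 and -1.31 in BUCY treated ones. The groups did not overlap, and again treated piglet 2 was lowest. CD2 was 2.15-fold lower after BUCY (log2 change -1.10, SE 0.201, limma adjusted p = 0.00109), or -2.29 by the scanner software's log ratio. In the DOX experiment the untreated piglets ran from 0.37 to 1.11 (median 0.62) and the treated ones from -0.47 to 0.66 (median -0.23). Treated piglets 4 and 5, at 0.61 and 0.66, lay among the untreated piglets and the other 4 lay below them all. The DOX change of -0.68 (SE 0.184, limma adjusted p = 0.0865) was not called, but passed without treated piglet 4 (-0.81, adjusted p = 0.0230), without treated piglet 5 (-0.82, adjusted p = 0.0238) and with array weights (-0.76, adjusted p = 0.0115).

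CD48 is a lipid-anchored protein of lymphocytes and other leukocytes and a partner of CD2 and CD244. It read -0.09, 0.00, -0.41, -0.49 and -0.46 in untreated piglets of the BUCY experiment and -1.24, -1.63, -1.05, -1.24 and -0.76 in BUCY treated ones, with no overlap. It was 1.86-fold lower after BUCY (log2 change -0.89, SE 0.132, limma adjusted p = 1.88e-04), or -1.34 with median centring of the arrays in place of loess. After DOX it ran from -0.38 to 0.02 (median -0.10), below the 6 untreated piglets at 0.10 to 0.44 (median 0.27). The DOX groups did not overlap, but the change of -0.40 (SE 0.120) missed the threshold in limma (adjusted p = 0.133). It passed with slide as a fixed block (-0.44, adjusted p = 0.0324), with array weights (adjusted p = 0.0153) and with only the DOX arrays in the fit (adjusted p = 0.0245).

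CD3D, the delta chain of CD3, was dimmer. Its log2 ratios were 0.24, 0.31, -0.24, 0.04 and -0.20 in untreated piglets of the BUCY experiment and -0.41, -0.42, -0.76, -0.63 and -0.52 in BUCY treated ones. All 5 treated values lay below the untreated ones, and 0 of the 5 treated arrays had the probe well above background. CD3D was 1.49-fold lower after BUCY (log2 change -0.58, SE 0.129, limma adjusted p = 0.00459), and the scanner software's log ratio gave -2.88. A second CD3D probe gave a smaller change, -0.34 (limma adjusted p = 0.0279 in a fit of all probes). On the normalised Cy5 signal, with the dimmest signal still above background as a floor, CD3D was 1.48-fold lower. The treated mean was 6.25 both as measured and with that floor, so 1.48 is the measured ratio and not a lower limit. The call ended without the 6 suffixed arrays, those with a suffix in their title (-0.52, adjusted p = 0.0998). DOX untreated piglets read 0.00 to 0.43 and DOX treated ones -0.28 to 0.31, and the change of -0.29 (adjusted p = 0.303) was not called. CD4, the co-receptor of helper T cells, changed by -0.43 after BUCY (adjusted p = 0.143) and by -0.40 after DOX (adjusted p = 0.390), with overlapping groups in both. Without BUCY treated piglets 2 and 3 its BUCY change was -0.27 (adjusted p = 0.619). Without BUCY treated piglet 5, the highest of its group at 0.42, the BUCY change of CD4 was -0.57 (adjusted p = 0.0462).

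The calls of CD3G, CD247, CD2 and CD48 after BUCY held under every other setting that tested them and with any 1 array left out. Without BUCY treated piglets 2 and 3 the changes were -1.90 for CD3G (adjusted p = 0.00137), -1.01 for CD247 (adjusted p = 0.0111), -1.04 for CD2 (adjusted p = 0.0119) and -0.79 for CD48 (adjusted p = 0.00178). Within the 3 slides that hold both BUCY groups, the difference ran from -1.68 to -1.26 for CD3G, from -1.34 to -0.45 for CD247, from -1.06 to -0.71 for CD2 and from -0.83 to -0.30 for CD48. Each of those slides held 1 untreated piglet and 1 or 2 treated ones, and untreated piglets 1 and 2 and treated piglet 2 were on none of them. For CD3G, CD2 and CD48 each of these values was smaller in size than the change over all piglets (-2.05, -1.10 and -0.89). For CD247 the range included its change of -1.12 over all piglets. The mean of the 6 T and NK cell antigens ran from -1.37 to -0.84 in BUCY treated piglets and from -0.44 to 0.22 in untreated ones. These 2 ranges did not overlap. Treated piglets 2 and 3, those with low enterocyte markers, were the lowest on this measure at -1.37 and -1.12, and the other 3 ran from -1.08 to -0.84. The BUCY effect did not differ from the DOX effect past the threshold for any of the 6: the difference was -1.11 for CD3G (SE 0.373, limma adjusted p = 0.0883), -0.69 for CD247 (SE 0.270, adjusted p = 0.147), -0.49 for CD48 (SE 0.179, adjusted p = 0.118), -0.42 for CD2, -0.29 for CD3D and -0.03 for CD4. The scanner software's log ratio put 2 of these past the threshold, CD3G (-2.44, adjusted p = 0.0363) and CD3D (-1.80, adjusted p = 0.0217), and CD48 passed without the suffixed arrays (-0.89, adjusted p = 0.0313) or without BUCY treated piglet 5 (-0.60, adjusted p = 0.0411).

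**Figure D2:**
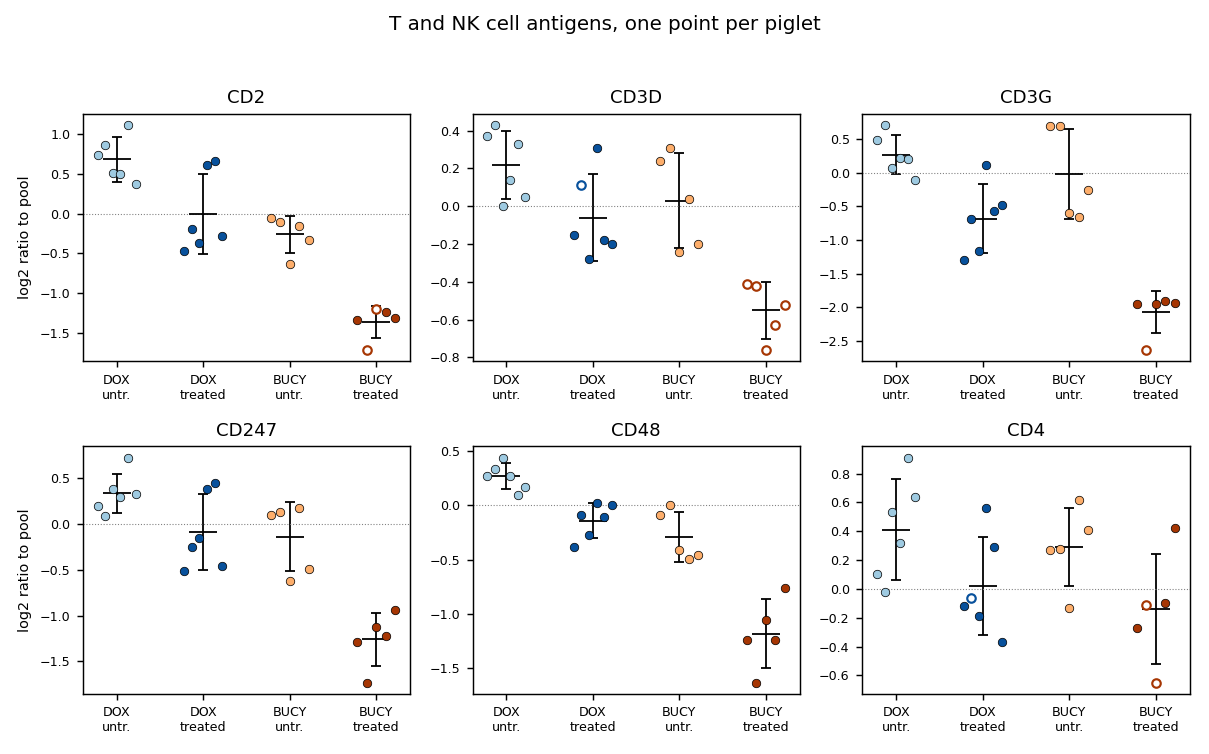
Log2 ratios to the pool (vertical axis) of the 6 T and NK cell antigens are plotted with 1 point per piglet in the 4 groups. Bars give mean ± SD, and open points were not well above background. For CD2, CD3D, CD3G, CD247 and CD48 the 5 BUCY treated piglets lie below the 5 untreated ones, while for CD4 the groups overlap.

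Other genes of the T cell receptor were read beside these antigens. Of 20 listed genes of T cell receptor signalling, 7 were tested, and 3 were lower after each drug, CD3E, LCK and CD8A. After BUCY their log2 changes were -1.42 (adjusted p = 4.95e-05), -1.36 (adjusted p = 1.02e-04) and -1.02 (adjusted p = 3.19e-04). After DOX they were -0.68 (adjusted p = 0.0465), -0.88 (adjusted p = 0.0103) and -0.97 (adjusted p = 7.81e-04). The call of CD3E after DOX lay close to the threshold. Lower calls made up 9.26% of all genes after BUCY and 0.517% after DOX, and 12.1% and 1.21% of genes with a symbol. LCK is the kinase that starts signalling at the receptor and CD8A the co-receptor of cytotoxic T cells. CD3E, CD3D and CD3G are neighbouring genes in the RefSeq annotation of the pig genome Sscrofa11.1. Leukocyte antigens with a CD number but another gene symbol numbered 54 in the list and 27 among the tested genes. Of these, 0 were called after DOX and 7 after BUCY, all lower, where 9.26% of all genes were lower after BUCY. The 7 include KLRK1, an activating receptor of NK and T cells (-1.42, adjusted p = 0.00141), and the T cell costimulator ICOS (-0.77, adjusted p = 0.00751). Under the alternatives that left out a set of arrays or changed the scale, filter, probe rule, block, weights or the arrays in the fit, 2 to 8 of the 27 were called after BUCY, the 2 with slide as a fixed block.

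The 2 tested B cell antigens, CD72 and CD180, were called after neither drug. CD72, an inhibitory receptor of B cells, had log2 changes of -0.09 after DOX and -0.15 after BUCY. CD180, a Toll-like receptor relative of B cells, had -0.08 and -0.17. Without BUCY treated piglets 2 and 3 the BUCY change of CD72 was -0.23 (adjusted p = 0.645). Of 16 genes listed for B cell receptor signalling 5 were tested. One was lower after DOX, the receptor chain CD79A (-0.75, adjusted p = 0.0125), and another after BUCY, the kinase SYK (-0.44, adjusted p = 0.0494), which lay at the threshold. Over all genes 0.517% were lower after DOX and 9.26% after BUCY.

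Among the antigens of myeloid and antigen-presenting cells, 8 of 9 were tested. CD1D, which presents lipids to natural killer T cells, was lower after both drugs. It is the only member called lower after DOX. In the DOX experiment, untreated piglets ran from 0.24 to 0.80 (median 0.54) and treated piglets from -0.47 to 0.42 (median -0.16). The groups overlapped through treated piglets 4 and 5, which also stood high for CD2 and CD247. CD1D was 1.51-fold lower after DOX (log2 change -0.60, SE 0.140, limma adjusted p = 0.0426, lower than the untreated mean in 6 of 6). This call lay close to the threshold. It ended with slide as a fixed block (-0.69, adjusted p = 0.0533), with either other filter on dim probes (adjusted p = 0.0514 and 0.0527) and without the suffixed arrays (-0.56, adjusted p = 0.109). It also ended when 1 array was left out: any of DOX treated piglets 1, 2, 3 and 6, DOX untreated piglets 1, 3, 4, 5 and 6, BUCY untreated piglets 2 and 3, or BUCY treated piglet 4 (adjusted p = 0.0502 to 0.122). The change then lay between -0.61 and -0.51.

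In the BUCY experiment CD1D read 0.48, 0.27, 0.09, 0.11 and -0.23 in untreated and -0.21, -0.63, -0.39, -0.45 and -0.33 in treated piglets. Untreated piglet 5 lay just below the highest treated piglet, and the others did not overlap. CD1D was 1.46-fold lower after BUCY (log2 change -0.54, SE 0.154, limma adjusted p = 0.0188). The call ended with slide as a fixed block (-0.46, adjusted p = 0.123), with only the BUCY arrays in the fit (adjusted p = 0.0578), without the suffixed arrays (-0.70, adjusted p = 0.0820), without BUCY treated piglets 2 and 3 (-0.47, adjusted p = 0.153), without untreated piglet 1 (-0.46, adjusted p = 0.0561) and without treated piglet 2 (-0.49, adjusted p = 0.0617). A second CD1D probe gave -0.26 after BUCY and -0.25 after DOX, neither past the threshold (adjusted p = 0.0857 and 0.259).

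CD74, the invariant chain that escorts MHC class II molecules, had the largest standard error of the members called after BUCY. It read 0.69, 0.70, 0.01, 1.68 and 1.06 in untreated piglets of the BUCY experiment and -0.78, -1.65, -0.83, 0.27 and 0.31 in BUCY treated ones. Treated piglets 1, 2 and 3 lay below all untreated piglets, and piglets 4 and 5 lay above untreated piglet 3. CD74 was 2.57-fold lower after BUCY (log2 change -1.36, SE 0.367, limma adjusted p = 0.0147), and its second probe gave -1.04 (adjusted p = 0.0285). The call ended without treated piglet 2 (-1.08, adjusted p = 0.0567), without treated piglets 2 and 3 (-0.89, adjusted p = 0.210), with array weights (-1.08, adjusted p = 0.0652) and with only the BUCY arrays in the fit (adjusted p = 0.0866). After DOX the change was -0.33 (SE 0.335, adjusted p = 0.739).

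The other 6 were called after neither drug. The costimulatory ligand CD80 had log2 changes of -0.02 after DOX and -0.04 after BUCY, and CD86 had 0.01 and -0.46. The receptor CD40, through which helper T cells activate antigen-presenting cells, had 0.12 and -0.26, and CD274, the inhibitory ligand also called PD-L1, had 0.09 and 0.13. The lectin CD209 of dendritic cells and macrophages had 0.11 and 0.04. Langerin, CD207, was above background on 4 arrays of each untreated group and on none of the treated ones. Its log2 changes of -0.19 and -0.29 were not called (limma adjusted p = 0.576 and 0.156), except by the scanner software's log ratio after BUCY (-2.33, adjusted p = 0.00393). CD86 passed after BUCY without BUCY untreated piglet 4 (-0.64, adjusted p = 0.0390) or treated piglet 5 (-0.63, adjusted p = 0.0430). Without BUCY treated piglets 2 and 3 the BUCY change was -0.27 for CD86 (adjusted p = 0.675), -0.48 for CD40 (adjusted p = 0.490), 0.43 for CD209 (adjusted p = 0.581), -0.06 for CD80 (adjusted p = 0.844) and -0.03 for CD274 (adjusted p = 0.968), which thus turned in sign. Among the macrophage markers listed, 4 of 6 were tested, and the scavenger receptor CD163 and the lipopolysaccharide co-receptor CD14 were higher after both drugs. CD163 rose by 1.34 after DOX and 1.49 after BUCY (adjusted p = 4.61e-04 and 1.31e-04), and CD14 by 1.26 and 0.82 (adjusted p = 0.00132 and 0.0132), while AIF1 was lower after BUCY (-0.53, adjusted p = 0.0471). Over all genes 0.372% were higher after DOX and 8.72% after BUCY, and 9.26% were lower after BUCY.

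The largest difference of any member lay between the untreated piglets of the 2 experiments, in CD86. Its log2 ratios were 0.34 to 0.94 in DOX untreated piglets (median 0.58) and 0.37 to 0.81 in DOX treated ones (median 0.55). In the BUCY experiment they were -1.63, -1.48, -2.33, -2.77 and -1.97 in untreated piglets and -2.12, -2.97, -2.58, -3.0 and -1.81 in treated piglets. All 10 piglets of the BUCY experiment thus lay far below all 12 of the DOX experiment, whatever their treatment. Between untreated piglets the gap was 6.16-fold (log2 difference -2.62, SE 0.216, limma adjusted p = 3.81e-08). The second probe gave -2.07 (adjusted p = 2.75e-08), and the value within the 2 slides that hold both untreated groups was -2.34 and -2.22. What else differed between the 2 experiments cannot be told apart from this gap.

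CD5L, the secreted macrophage protein, was 4.37-fold lower in untreated piglets of the BUCY than of the DOX experiment (log2 difference -2.13, SE 0.434, limma adjusted p = 0.00105). DOX untreated piglets ran from -0.98 to 1.96 (median -0.40), with piglet 1 far above the rest. BUCY untreated piglets read -2.16, -1.62, -2.25, -2.43 and -2.27, below every DOX untreated piglet. The 2 other tested probes gave -1.30 and -1.21 (adjusted p = 0.00127 and 0.00297), and the scanner software's log ratio -3.60. BUCY treated piglets read -1.56, -1.93, 0.50, -2.01 and -1.79, so piglet 3 stood far above the other 4. The change after BUCY (0.79, SE 0.453, adjusted p = 0.235) was not called and was 0.36 without treated piglets 2 and 3. The scanner software's log ratio called it (1.75, adjusted p = 0.0494). DOX treated piglets ran from -1.25 to -0.58 (median -0.90) and the DOX change was -0.89 (adjusted p = 0.389).

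CD180 was 1.60-fold lower in BUCY than in DOX untreated piglets (log2 difference -0.68, SE 0.185, limma adjusted p = 0.0102). DOX untreated piglets ran from -0.29 to 0.59 (median 0.24) and BUCY untreated piglets read -0.28, -0.26, -0.67, -0.68 and -0.44. The groups overlapped through 1 low DOX piglet. The call ended with slide as a fixed block (-0.57, adjusted p = 0.0729) and without the suffixed arrays (-0.62, adjusted p = 0.0592). CD2 and CD48, both lower after BUCY, were also lower in the untreated piglets of the BUCY experiment, by -0.93 (adjusted p = 0.00115) and -0.55 (adjusted p = 0.00274), with no overlap for either, while CD3G, CD3D and CD4 were not called (-0.29, -0.19 and -0.13). For CD3G the second probe had the opposite sign here, 0.36 (adjusted p = 0.0372). CD72 (-0.47, adjusted p = 0.0466) and CD69, an early activation marker of lymphocytes (-0.29, adjusted p = 0.0266), were called too. CD69 stood well above background on 4 of 6 DOX untreated arrays and on 1 of 5 BUCY untreated arrays. It met the filter of 5 arrays only through the DOX untreated group, where it was higher. Its call is therefore not independent of that filter and rests on values near background. CD72 lost the call in 21 of the other fits, 14 of them with 1 array left out, and within slides it ran from -1.02 to 0.18. CD69 lost it with median centring (adjusted p = 0.0871), without the suffixed arrays (-0.21, adjusted p = 0.178), without DOX untreated piglet 1 (-0.27, adjusted p = 0.0618) and without BUCY untreated piglet 4 (-0.23, adjusted p = 0.0912). CD247 differed by -0.47 (adjusted p = 0.0806), which passed with the mean of its probes (-0.44, adjusted p = 0.0434) and with only the untreated groups in the fit (adjusted p = 0.0465), and its second probe gave -0.41 (adjusted p = 0.0236 in a fit of all probes). Of the other leukocyte antigens, 10 of 27 were lower and 1 higher in the untreated piglets of the BUCY experiment. The shares were 10.9% lower and 12.2% higher over all genes, and 22.2% and 10.3% over genes with a symbol.

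Markers of other cells also differed between the untreated piglets of the experiments, where differences were common. Of the tested genes with a symbol, 22.2% were lower and 10.3% higher in the BUCY experiment. Of the macrophage markers 3 of 4 tested were lower in the BUCY experiment (median log2 difference -0.68), and their mean ran from -1.10 to -0.41 there and from -0.46 to 0.18 in DOX untreated piglets. Of the B cell receptor signalling genes 4 of 5 were lower (median -0.42). Of the enterocyte markers 4 of 9 were higher and 1 lower (median 0.74). The part of these markers in the differences of CD86, CD5L, CD180 and the other members was not tested.

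**Figure D3:**
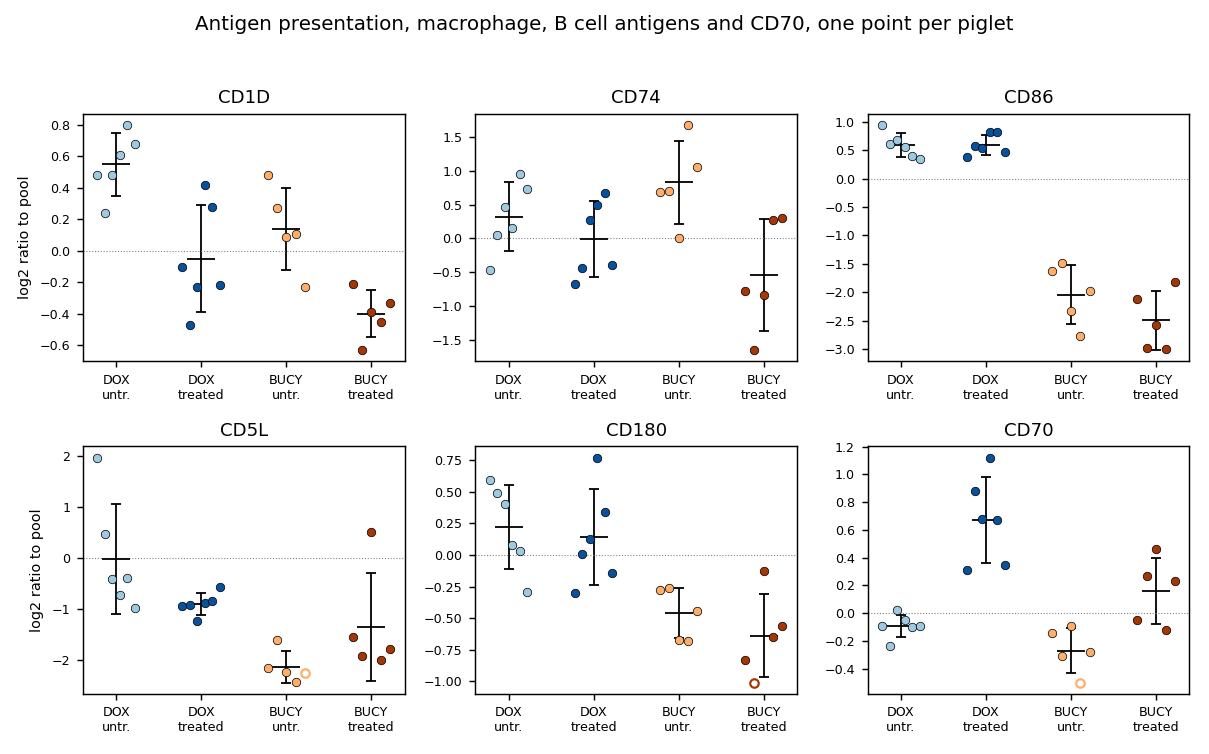
Log2 ratios to the pool (vertical axis) of CD1D, CD74, CD86, CD5L, CD180 and CD70 are plotted with 1 point per piglet in the 4 groups, with mean ± SD and open points where the probe was not well above background. CD86 lies between 0.34 and 0.94 in all 12 piglets of the DOX experiment and between -3.0 and -1.48 in all 10 of the BUCY experiment, while CD70 lies higher in all 6 DOX treated piglets than in the 6 untreated ones.

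CD70, the ligand through which activated lymphocytes and dendritic cells stimulate CD27 on T cells, was the only member called higher after DOX. DOX untreated piglets ran from -0.24 to 0.02 (median -0.09) and DOX treated ones from 0.31 to 1.12 (median 0.67). The groups did not overlap. After DOX CD70 rose 1.69-fold (log2 change 0.76, SE 0.123, limma adjusted p = 0.00184, higher in 6 of 6), and this held under every other setting that tested it and with any 1 array left out, with 1.89 from the scanner software's log ratio. The difference within slides ran from 0.48 to 0.86. In the BUCY experiment CD70 read -0.14, -0.31, -0.09, -0.50 and -0.28 in untreated piglets and -0.05, 0.27, 0.46, -0.12 and 0.23 in treated ones. Treated piglet 4 lay within the untreated range. The rise after BUCY was 1.34-fold (log2 change 0.42, SE 0.135, limma adjusted p = 0.0338).

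That call of CD70 after BUCY lay close to the threshold. It ended with the Cy5 channel alone (adjusted p = 0.0607), slide as a fixed block (0.45, adjusted p = 0.0997), only the BUCY arrays in the fit (adjusted p = 0.0981) or array weights (0.32, adjusted p = 0.147). It ended too without the suffixed arrays (0.29, adjusted p = 0.361), without BUCY treated piglets 2 and 3 (0.29, adjusted p = 0.337) and without any 1 of BUCY untreated piglets 2, 4 and 5 and BUCY treated piglets 2, 3 and 5 (0.35 to 0.42, adjusted p = 0.0510 to 0.107). The scanner software's log ratio gave 1.44 (adjusted p = 0.00502). The difference between the 2 drugs' effects on CD70 was -0.34 (SE 0.183, adjusted p = 0.329).

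The 3 tetraspanins parted after BUCY. CD9, which is found on platelets, leukocytes and epithelium, was higher, and CD82 and CD81 were lower. CD81 is found on B cells and many other cells. CD9 read -0.13, -0.21, -0.71, -0.34 and -0.21 in untreated and 0.32, 1.46, 1.09, 0.23 and 0.06 in BUCY treated piglets. The groups did not overlap, and treated piglets 2 and 3, those with the low enterocyte markers, were far above the other 3. After BUCY CD9 rose 1.94-fold (log2 change 0.95, SE 0.204, limma adjusted p = 0.00345), and all 6 of its probes rose, by 0.47 to 0.95. Without treated piglets 2 and 3 the rise was 0.53 (adjusted p = 0.0402), and the mean of its probes gave 0.62 (adjusted p = 0.00413). Median centring gave 0.42 (adjusted p = 0.163) on a scale on which the median of all genes was -0.12, and with only the BUCY arrays in the fit the adjusted p was 0.0710. The part of the low enterocyte markers of those 2 piglets in the level of CD9 was not tested.

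After DOX, CD9 ran from 0.27 to 0.88 (median 0.58) against -0.25 to 0.21 (median -0.02) in untreated piglets. The DOX groups did not overlap, but the change of 0.54 (SE 0.186) missed the threshold in limma (adjusted p = 0.202), as did each of the other 5 probes (0.40 to 0.56). It passed with only the DOX arrays in the fit (adjusted p = 0.0197), with array weights (0.57, adjusted p = 0.0218) and without BUCY treated piglets 2 and 3 (adjusted p = 0.0179). Those last 2 arrays belong to the other experiment and act on this value only through the shared estimate of the spread. Between untreated piglets CD9 was lower in the BUCY experiment, a difference that was not called (-0.32, SE 0.195, limma adjusted p = 0.274). All 6 probes had that sign there (-0.54 to -0.32). The difference between untreated piglets passed the threshold with median centring and with the mean of its probes.

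CD82 read 0.12, 0.07, 0.34, 0.72 and 0.35 in untreated and -0.14, -0.47, -0.61, -0.07 and -0.14 in BUCY treated piglets. No treated piglet reached the lowest untreated one. CD82 was 1.53-fold lower after BUCY (log2 change -0.61, SE 0.121, limma adjusted p = 0.00202), and its 2 other probes gave -0.59 and -0.68. The treated piglets with the low enterocyte markers were the lowest of their group, at -0.47 and -0.61. Without them the change of CD82 after BUCY was smaller, -0.44, and still called (limma adjusted p = 0.0414). The call ended without the suffixed arrays (-0.49, adjusted p = 0.0525) and with only the BUCY arrays in the fit (adjusted p = 0.0562), and median centring gave -1.24 (adjusted p = 0.0143). DOX untreated piglets lay between -0.39 and 0.06 for CD82 and DOX treated ones, in a narrow band, between -0.07 and 0.07. The DOX change was 0.17 (SE 0.110, adjusted p = 0.578). CD82 was 1 of the 2 members whose effects differed between the drugs, by -0.77 (SE 0.164, limma adjusted p = 0.00852), a call that ended with median centring (-1.19, adjusted p = 0.176), with the mean of its probes (-0.74, adjusted p = 0.0809) and without the suffixed arrays (-0.65, adjusted p = 0.0718). With the BUCY treated piglets of low enterocyte markers left out, the effects on CD82 differed by -0.61 (limma adjusted p = 0.0395). Its untreated piglets also differed between the experiments, by 0.50 (adjusted p = 0.00331), so the change after BUCY started from a higher level. That difference was 0.21 (adjusted p = 0.684) with median centring and 0.45 (adjusted p = 0.0646) with the mean of its probes.

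CD81 read -0.07, 0.06, 0.89, 1.48 and 0.45 in untreated and -0.52, -0.44, -0.70, 0.22 and 0.04 in BUCY treated piglets. The groups overlapped through treated piglets 4 and 5. CD81 was 1.79-fold lower after BUCY (log2 change -0.84, SE 0.260, limma adjusted p = 0.0293). For the same gene DOX untreated piglets ran from -0.47 to 0.42 (median -0.29) and DOX treated ones from -0.27 to 0.80 (median 0.29), with a change of 0.47 (SE 0.237, adjusted p = 0.438). The 2 effects differed by -1.31 (SE 0.352, limma adjusted p = 0.0317), and the untreated groups differed by 0.74 (adjusted p = 0.0353), again with the higher level in the BUCY experiment.

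All 3 calls of CD81 lay close to the threshold. The BUCY call ended without BUCY untreated piglet 3 or 4 or treated piglet 2 or 3 (-0.80 to -0.61, adjusted p = 0.0726 to 0.0885) and with treated piglets 2 and 3 both left out (-0.65, adjusted p = 0.263). It ended with array weights (-0.47, adjusted p = 0.282), the Cy5 channel alone (-0.90, adjusted p = 0.0583), only the BUCY arrays (adjusted p = 0.128) and without the suffixed arrays (-0.77, adjusted p = 0.141), while median centring gave -1.36 (adjusted p = 0.0172). The difference between the drugs' effects on CD81 ended without any 1 of DOX untreated piglets 1 and 3, DOX treated piglets 3 and 5, BUCY untreated piglet 3 and BUCY treated piglets 2 and 3 (-1.27 to -1.21, adjusted p = 0.0537 to 0.0617). It also ended with median centring (-1.67, adjusted p = 0.104), the Cy5 channel alone (-1.41, adjusted p = 0.0721), array weights (-0.91, adjusted p = 0.145), without the suffixed arrays (-1.19, adjusted p = 0.126) and without BUCY treated piglets 2 and 3 (-1.12, adjusted p = 0.127). Between untreated piglets the call of CD81 ended in 15 other fits, among them median centring (0.41, adjusted p = 0.465), the fit without the suffixed arrays (0.47, adjusted p = 0.198) and the fit without BUCY untreated piglet 4 (0.51, adjusted p = 0.132).

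**Figure D4:**
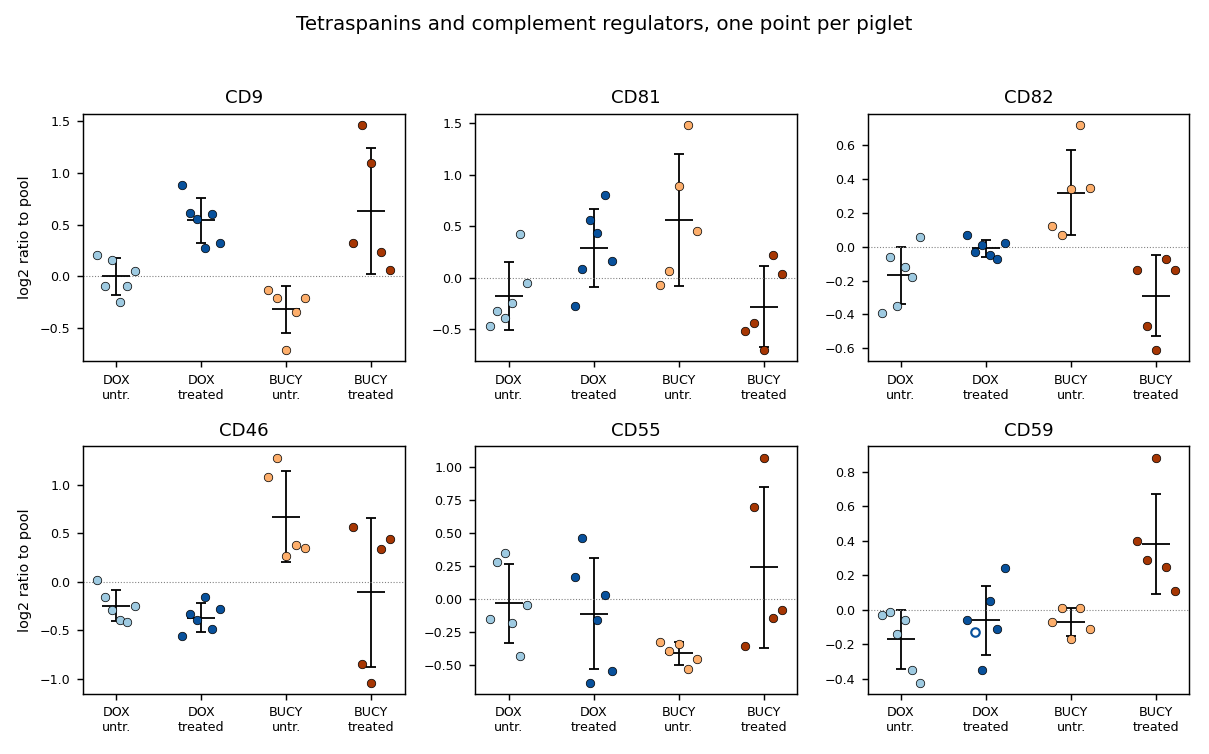
Log2 ratios to the pool (vertical axis) of the tetraspanins CD9, CD81 and CD82 and the complement regulators CD46, CD55 and CD59 are plotted with 1 point per piglet in the 4 groups, with mean ± SD and open points where the probe was not well above background. In BUCY treated piglets 2 and 3 (points 2 and 3 of their group), CD46 lies at -0.85 and -1.04 and CD55 at 0.70 and 1.07, away from the other 3 piglets.

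The complement regulators protect the body's own cells from complement and differ in how they act. CD59 blocks the assembly of the membrane attack complex. It read -0.07, 0.01, -0.17, 0.01 and -0.11 in untreated and 0.40, 0.29, 0.88, 0.25 and 0.11 in BUCY treated piglets. The groups did not overlap and treated piglet 3 was the highest by far. After BUCY CD59 rose 1.37-fold (log2 change 0.45, SE 0.126, limma adjusted p = 0.0173), or 0.82 by the scanner software's log ratio. The call ended without treated piglet 3 (0.33, adjusted p = 0.0559), without treated piglets 2 and 3 (0.32, adjusted p = 0.147), without the suffixed arrays (0.42, adjusted p = 0.0854), with the Cy5 channel alone (0.43, adjusted p = 0.0871), with array weights (0.37, adjusted p = 0.0574) and with only the BUCY arrays (adjusted p = 0.0919). The DOX change was 0.11 (adjusted p = 0.756).

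CD46, a cofactor for the cleavage of complement C3b, was lower after BUCY, with treated piglets 2 and 3 far below treated piglets 1, 4 and 5. Untreated piglets 1 and 2 stood above the other untreated ones. It read 1.08, 1.28, 0.27, 0.38 and 0.35 in untreated and 0.56, -0.85, -1.04, 0.34 and 0.44 in BUCY treated piglets. Treated piglets 1, 4 and 5 lay among the untreated ones. The log2 change was -0.78 (SE 0.259, limma adjusted p = 0.0408) and fell to -0.23 (adjusted p = 0.615) without treated piglets 2 and 3. It was -0.36 (adjusted p = 0.446) with slide as a fixed block, and within slides it ran from -0.73 to 0.29. Leaving out only 1 of BUCY treated piglets 2 and 3 or of untreated piglets 1 and 2 also ended the call (-0.68 to -0.55, adjusted p = 0.102 to 0.141). So did median centring, the Cy5 channel alone, no filter on dim probes, slide as a random block, scan day as a block, only the BUCY arrays and the fit without the suffixed arrays (adjusted p = 0.0525 to 0.206). Between untreated piglets CD46 was 1.89-fold higher in the BUCY experiment (log2 difference 0.92, SE 0.248, limma adjusted p = 0.00982), where DOX untreated piglets ran from -0.42 to 0.02 (median -0.27), below all BUCY untreated piglets. That call ended with median centring (0.80, adjusted p = 0.138). DOX treated piglets ran from -0.56 to -0.16, with a change of -0.12 (adjusted p = 0.882).

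CD55, which speeds the decay of the complement convertases, read -0.32, -0.39, -0.34, -0.53 and -0.45 in untreated and -0.35, 0.70, 1.07, -0.14 and -0.08 in BUCY treated piglets. Its change of 0.65 (SE 0.236, limma adjusted p = 0.0598) was not called, and again treated piglets 2 and 3 lay apart, here above the rest. Without them the change was 0.22 (adjusted p = 0.673). Slide as a random block (0.69, adjusted p = 0.0410), scan day as a block (0.69, adjusted p = 0.0455) and the fits without BUCY treated piglet 1, 4 or 5 (0.73 to 0.79, adjusted p = 0.0174 to 0.0430) put it past the threshold. After DOX it changed by -0.08. In the enterocyte marker list, 5 of 9 tested genes were lower after BUCY, among them the brush border proteases TMPRSS15 (-2.11, adjusted p = 0.00303) and DPP4 (-1.61, adjusted p = 0.00459) and the apolipoprotein APOA1 (-1.79, adjusted p = 0.0161), and 0 of 9 after DOX. Of all genes 9.26% were lower after BUCY and 0.517% after DOX. The mean of the 9 markers ran from -0.14 to 0.51 in BUCY untreated piglets and from -0.14 to 0.48 in BUCY treated piglets 1, 4 and 5. In treated piglets 2 and 3 it was far lower, down to -2.27. The changes of these markers are given only with those 2 piglets included. The part of these markers in the levels of CD46, CD55 and CD59 was not tested.

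The other 7 tested members, CD34, CD36, CD47, CD58, CD69, CD302 and CD5L, were called after neither drug. CD58, the adhesion partner of CD2, had log2 changes of -0.37 after DOX and -0.31 after BUCY (limma adjusted p = 0.383 and 0.260). CD47, the signal that keeps phagocytes from engulfing a cell, had 0.31 and 0.50 (adjusted p = 0.634 and 0.175). CD34, of blood-forming progenitors and vessel walls, had -0.17 and -0.27, and CD36, a receptor for fatty acids and oxidised lipids, -0.34 and -0.14. CD69 had -0.14 and 0.04, and the lectin receptor CD302 -0.01 and -0.19. After BUCY, CD302 was at 0.44 in the median piglet, while the lowest treated piglet was at -1.15. Without BUCY treated piglets 2 and 3 the BUCY change of CD47 was 0.01 (adjusted p = 0.995), that of CD58 -0.06 (adjusted p = 0.928) and that of CD69 0.02 (adjusted p = 0.968). The sign turned for CD302, to 0.49 (adjusted p = 0.238), and for CD36, to 0.14 (adjusted p = 0.902). In 1 left-out array each, 3 of these passed the threshold after BUCY: CD34 without untreated piglet 5 (-0.55, adjusted p = 0.0342), CD47 without treated piglet 5 (0.74, adjusted p = 0.0276) and CD58 without treated piglet 5 (-0.48, adjusted p = 0.0484). The mean level of 4 tested endothelial markers, of 6 listed, ran from 0.27 to 0.99 in BUCY treated and from 0.00 to 0.48 in BUCY untreated piglets, and the mean of 5 tested stromal and muscle markers, of 10 listed, from -0.19 to 0.76 and from -0.24 to 0.25. Of the goblet and Paneth markers 2 of 5 were tested, and SPINK4 was lower after BUCY (-1.03, adjusted p = 0.00471). Of 4 erythroid markers 0 were tested.

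The members differed in how well the array saw them. All 22 arrays had 17 members well above background, and 13 other tested members reached that level on 6 to 21 arrays. The lowest was CD69 with 6 arrays, followed by CD207 with 8. Of the 17 tested members with several tested probes, all probes had 1 sign in 14 after BUCY, in 13 after DOX and in 16 between untreated groups. Some members are also close neighbours in the pig genome Sscrofa11.1 by the RefSeq annotation: CD1D and CD5L have 1 gene between them, as do CD2 and CD58, and CD34 and CD46.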

How the data were processed

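RNA of 22 piglets was read on 22 two-colour Agilent pig arrays in 4 groups (DOX treated 6, DOX untreated 6, BUCY treated 5, BUCY untreated 5), with Cy5 for the piglet and Cy3 for the pool on every array. Per the file headers, intensity and a log10 ratio of Cy5 over Cy3 come from Agilent Feature Extraction 10.7.3.1. The table of log2 ratios deposited by the authors gave the values used here. The submitters' processing notes name Agilent Feature Extraction and limma, and no normalisation step is given in the sources used here. Over all probes the deposited log2 ratios matched the intensities after normexp correction (offset 50), loess and quantile normalisation of each channel (r 0.999 to 1.00 per array, slope 0.994 to 1.01), and array medians ran from 0.00146 to 0.018, so scale and direction (piglet over pool) were taken as settled. This offset shrinks the changes of dim probes. Of the deposited values 177 were missing, 0 of them in the members.

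Probe accessions were joined to RefSeq genes of Sscrofa11.1, which named 6700 of 43603 probes (15.4%). Each gene took its probe with the highest mean Cy5 signal, and 24761 genes with Cy5 well above background on at least 5 arrays were tested. One limma model (limma 3.58.1, R 4.3.3, two-sided) held the 4 group means over all arrays, with 18 residual and 3.52 prior degrees of freedom. The Benjamini-Hochberg adjustment of p-values ran over all genes, with a threshold of 0.05. A gene above background on no array of a group has a bound against the dimmest signal above background. The script was tested on simulated data. The replicate is the piglet, and its number is only a name given by array order.

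The members and gene lists were chosen with earlier results of these data known. Array values and full statistics are given for members called after DOX or BUCY, up to 10 each by p, and for up to 4 further members called in each of the other comparisons. For other members log2 changes are given, and for each list up to 3 called genes per drug, except that 1 member and 1 listed gene are not reported here. CD4, CD55 and CD72 have more values than that rule asks, chosen after their values were seen. Alternatives changed the values used, the filter, the probe rule, blocks for slide and scan day, the arrays in the fit and their weights, and left out each array. BUCY treated piglets 2 and 3, and 6 arrays with a suffix in their title, were also left out as sets.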

Additional observations from a re-analysis of the deposited data

Results flagged for a closer look

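In 4 of 120 combinations of a tested member and a group, 1 piglet lay beyond Dixon's limit for its group, a share below the 1 in 20 that chance gives. BUCY treated piglet 2 was the lowest of its group for CD2, at a log2 ratio of -1.71, and for CD3G, at -2.63. BUCY treated piglet 3 was the highest for CD5L, at 0.50, and DOX untreated piglet 3 the highest for CD72, at 0.68.

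The BUCY and the DOX effect differed by the test of the difference itself for CD82, by -0.77 (SE 0.164, limma adjusted p = 0.00852), and for CD81, by -1.31 (SE 0.352, limma adjusted p = 0.0317). Each drug was given in its own experiment, so drug and experiment cannot be told apart here. The call ended in 3 other fits for CD82 and in 12 for CD81. Untreated piglets of the BUCY experiment were also higher, by 0.50 for CD82 and 0.74 for CD81. Both antigens were lower than the untreated mean in 5 of 5 piglets after BUCY. After DOX, CD82 was higher than the untreated mean in 6 of 6 piglets and CD81 in 5 of 6.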

How the results depend on the processing

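Of the members called in the main setting (2 after DOX, 13 after BUCY, 2 for the difference of effects, 10 between untreated groups), 1, 4, 0 and 4 kept the call under every other setting that tested them and with any 1 array left out. No member called in the main setting changed sign in any setting run. After DOX the count of members called was 0 with probes above background on all arrays, 1 with no filter, 1 without the suffixed arrays, 5 with only the DOX arrays and 6 with array weights, and 1 to 4 with 1 array left out. After BUCY it was 8 with probes above background on all arrays, 5 with only the BUCY arrays, 6 without the suffixed arrays and 7 without BUCY treated piglets 2 and 3, and 8 to 17 with 1 array left out, 8 of them without BUCY treated piglet 2. For the difference of effects it was 0 with median centring, 4 with the scanner software's log ratio, and 1 each with the Cy5 channel alone, the mean of all probes, array weights, without the suffixed arrays and without BUCY treated piglets 2 and 3, and 1 to 3 with 1 array left out. Between untreated groups it was 7 to 11 with 1 array left out. The filter for all arrays tests fewer members. Of those called after BUCY, CD2, CD3D, CD3G, CD59 and CD70 were not tested by it, and the others kept the call. Of those called after DOX, CD70 was not tested by it and CD1D lost the call. The cause of the other shifts was not tested. Over all genes the DOX calls were 220, against 741 with only the DOX arrays and 1125 with array weights. With 1 array left out they ran from 120 to 313. For BUCY that range was 2314 to 6638, the lowest without BUCY treated piglet 2. The difference of effects was called for 1345 genes, and for 104 with median centring. Between untreated groups 5717 genes were called, and 4768 to 6411 with 1 array left out. Over all genes the BUCY calls were 4454, against 766 with only the BUCY arrays, 1138 without BUCY treated piglets 2 and 3, 1426 without the suffixed arrays and 2284 with slide as a fixed block. That block also takes BUCY treated piglet 2, alone on its slide, out of the comparison. With median centring the median log2 change of all genes after BUCY was -0.12, and 16.7% of all BUCY calls were higher against 48.5% in the main setting. The share was 30.3% against 41.8% after DOX, 36.5% against 52.8% for the difference and 37.7% against 53.0% between untreated groups. No paired analysis was possible because the replicate numbers only follow the order of the arrays. Dim members such as CD3D, CD207 and CD69 are limited by signal over background.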
